A study of Mus musculus with 7 samples.

Results

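The genes described here encode the translation initiation factors (Eif) and elongation factors (Eef) of the mouse. They are the rows of the deposited count table whose symbol starts with Eif or Eef, with Eef1a1, Eef1a2 and the eIF2 kinases (Eif2ak) left out, and there were 61 of them among 23337 genes. RNA had been sequenced from heart muscle cells of mice aged 6 days (P6, 4 libraries) or 30 days (P30, 3 libraries). By the labels every mouse carried a Rosa-Tom or Rosa-Cas9 allele, and which of these each mouse had is not given. All of them received AAV9-cTNT-Cre on postnatal day 1, so both ages carry the virus, and age cannot be told apart from time since the virus. The virus makes Cre recombinase under the cardiac troponin T promoter, and cells were freed by collagenase and purified by fluorescence sorting. One label gives day 14 as the collection day, whereas the titles, ages and design text give P6 or P30, which are used here. The question was how cardiomyocytes at P30 differ in these transcripts from those at P6.

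Initiation factors bring the small ribosomal subunit, the initiator tRNA and the mRNA together. eIF2 carries the initiator tRNA, eIF2B recharges eIF2 with GTP, and eIF3 binds the small subunit. eIF4F (the cap-binding eIF4E, the scaffold eIF4G and the helicase eIF4A) binds the capped end of the message. The eIF4E-binding proteins keep eIF4E from the scaffold until mTORC1 phosphorylates them, and elongation factors then deliver tRNAs and move the ribosome along. Growth of the postnatal heart by enlargement of its muscle cells is known to depend on protein synthesis.

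Sorted cells had the transcripts of cardiomyocytes. Cardiomyocyte markers such as Tnnt2, Myh6 and Actc1 (4 of 8 higher, none lower) summed to 80400 to 99600 CPM at P6 and 118000 to 126000 CPM at P30, where CPM is the conventional library-scaled count with the library size adjusted by TMM. Markers of other cells were present too. The endothelial list (7 of 7 genes higher at P30) summed to 83.9 to 156 CPM at P6 and 267 to 540 CPM at P30, the leukocyte list (7 of 7 higher) to 2.25 to 5.23 and 12.8 to 43.4 CPM, and the fibroblast list (1 of 7 lower) to 158 to 391 and 137 to 313 CPM. Smooth muscle and pericyte markers summed to 979 to 2190 CPM at P6 and 952 to 1800 CPM at P30 (3 of 7 higher, 1 lower), and epicardial ones to 4.52 to 10.7 and 6.25 to 8.07 CPM (1 of 4 lower). The erythroid list summed to 0.221 to 1.33 CPM at P6 and 0.112 to 0.517 CPM at P30, and of its genes Hba-a1 and Hba-a2 were at 0 counts in all 7 libraries. How multiply mapped reads were treated is not given, so 0 counts need not mean that these transcripts were absent. Genes of the immediate early and dissociation list (10 of 12 higher) went from 358 to 458 CPM at P6 to 1680 to 2790 CPM at P30, and 6 of 6 proliferation genes fell, from 159 to 252 CPM to 3.02 to 18.4 CPM. The part of these differences in the results below was not tested. In such bulk libraries fewer cells of a type and less RNA per cell cannot be told apart. Library totals ran from 10594932 to 51427646 counts, so that 3 counts, taken as the detection floor, stood for 0.0553 to 0.271 CPM. Whether each library is a different mouse is not stated. The p-values therefore reflect how much these libraries vary, and part of that variation may be technical.

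Library P6a stood apart in its sex-linked genes. It held 51.2 CPM of Xist, the RNA of the inactive X chromosome, and 0 counts of the Y-linked Ddx3y, Kdm5d, Uty and Eif2s3y. Each of the other 6 libraries had at most 0.675 CPM of Xist and at least 62.5 CPM of Eif2s3y. Calls of members that changed when P6a was left out are given with the gene.

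Promoter sequence gives a first view of how these genes relate. RefSeq (GRCm38.p6) start sites were matched for 47 of the 61 genes, and 46 of those passed the filter on low counts. The E-box CACGTG, the letters bound by MYC-family factors and the same on both strands, lay within 250 bases before to 50 bases after a start in 12 of the 46 tested members with a window (26.1%). It did so in 11.9% of the 9831 tested genes with a window, and in 7.15% of all 32851 RefSeq start windows of that length. By outcome these were 6 of 14 members that fell with age, 2 of 7 that rose and 4 of 25 that did not pass the test. No test was made of these shares, and a match describes letters, not a bound factor. The stretches below are printed 5′ to 3′ on the strand of the gene because they belong to genes the results turn on, with the E-box in capitals. Eif5a2, Eif4h, Eif4a1 and Eef2 fell with age and Eif4g1 rose.
Eif5a2 (chr3:28781136-28781189, plus strand): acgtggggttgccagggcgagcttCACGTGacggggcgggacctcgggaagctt
Eif4h (chr5:134639476-134639529, minus strand): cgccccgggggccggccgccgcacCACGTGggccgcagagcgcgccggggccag
Eif4a1 (chr11:69672583-69672636, minus strand): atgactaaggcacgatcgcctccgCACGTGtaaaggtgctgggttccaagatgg
Eef2 (chr10:81176564-81176617, plus strand): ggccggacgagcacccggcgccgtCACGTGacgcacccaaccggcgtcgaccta
Eif4g1 (chr16:20672649-20672702, plus strand): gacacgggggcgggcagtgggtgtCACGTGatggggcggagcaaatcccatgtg
Counted from the RefSeq start, the first base of the printed E-box lay at -117 in Eif5a2, -96 in Eif4h, -189 in Eif4a1, -43 in Eef2 and -54 in Eif4g1. The Eif4g1 stretch lies inside the span that GENCODE gives the gene, which begins at 20668313. The RefSeq start used for Eif4g1 is therefore downstream of the GENCODE one. Eif5a2 and Eif4g1 each held 2 copies, of which 1 is shown.

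Messages of the translation machinery often begin with a run of C and T (the 5′ terminal oligopyrimidine, or TOP, tract), through which mTORC1 and LARP1 govern their use. An unbroken run of at least 8 C or T on the sense strand, within 30 bases before to 20 bases after a start, was found in 10 of the 46 members (21.7%), against 23.1% of tested genes and 20.2% of all start windows. None of the 14 falling members with a window had such a run. Such a run was found in 2 of the 7 with a window that rose and 8 of the 25 that did not pass the test. The 5 members with the longest runs (21, 16, 15, 13 and 12 bases in Eif2b5, Eif2s3x, Eif3f, Eif4e and Eif2s3y) are shown with the run in capitals. For Eif4e, which has 2 annotated starts, only the window with a run is printed.
Eif3f (chr7:108934385-108934434, plus strand): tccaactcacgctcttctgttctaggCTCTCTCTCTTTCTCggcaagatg
Eif2s3x (chrX:94212632-94212681, minus strand): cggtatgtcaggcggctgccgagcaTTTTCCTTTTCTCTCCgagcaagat
Eif2s3y (chrY:1010565-1010614, plus strand): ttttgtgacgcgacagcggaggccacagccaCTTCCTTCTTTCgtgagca
Eif2b5 (chr16:20498787-20498836, plus strand): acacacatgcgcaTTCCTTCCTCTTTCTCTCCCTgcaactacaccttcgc
Eif4e (chr3:138527238-138527287, plus strand): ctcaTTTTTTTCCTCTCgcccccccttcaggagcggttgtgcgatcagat
Annotated starts can lie some bases from the true one, so a tract outside this window would be missed. A run that crosses the edge of the window is counted only up to the edge. In Eef2 and Eif3k, both lower at P30, the window ended within a stretch of C and T, with fewer than 8 of its bases inside. A list of 8 members known for TOP messages (Eef1b2, Eef1d, Eef1g, Eef2, Eif3e, Eif3f, Eif3h, Eif4b) gave 1 lower and none higher at P30, with a median log2 fold change of -0.09 against -0.02 over all tested genes. Only Eef2 passed the test among them, and 3 were lower without P6b, 2 without P30c and none without P6c, P30a or P30b. Of the 8 members listed, 4 had a window, and the scan found a run in 1 of those 4. Absence of a run here therefore does not mean absence of a TOP tract.

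Of the 61 genes, 59 passed the filter on low counts. The 2 others, Eif4e1b and Eif3j, had no count in any library. Eif3j has a copy, and the treatment of multiply mapped reads is not given. Its lack of counts therefore need not mean that the transcript is absent, and this was not tested. Between P6 and P30, 9 members rose and 18 fell (edgeR, with p from its quasi-likelihood test adjusted by Benjamini-Hochberg over all 12561 tested genes and a threshold of 0.05). That is 45.8% of the tested members, where 54.1% of all tested genes were called, 26.3% higher and 27.8% lower. The CPM of 29 members (49.2%) did not overlap between the ages, against 56.6% of all tested genes. Changes were mostly small: 5 members passed the test with at least a 2-fold difference, against 23.0% of all genes. Those were Eif5a2, Eif4ebp1, Eif2s2 and Eif1a, which fell, and Eif2c4, which rose. The median log2 fold change of the members was -0.10. Their summed level was 6709 to 7161 CPM at P6 and 6893 to 7167 CPM at P30, so the summed factor transcripts overlapped between the ages. Every count of 0 given below for a factor complex was also 0 at an unadjusted edgeR p under 0.05 and with DESeq2, with 1 exception. There, 2 genes grouped with the eEF1 exchange complex were lower at an unadjusted edgeR p under 0.05.

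Scaling matters for changes this small. When libraries were scaled by their totals and not by TMM, the median of all genes moved from -0.02 to -0.20, and 7 members were higher and 32 lower. The 14 lower members gained were Eef1b2, Eef1d, Eef1e1, Eif1, Eif2a, Eif2b1, Eif2b3, Eif2c2, Eif2s3x, Eif3e, Eif3g, Eif3h, Eif3l and Eif4b. Over all genes that scaling gave 19.2% higher and 37.1% lower. Of the 27 members called, 18 were called with the same sign under every alternative tried. The authors' deposited table called 10 members higher and 17 lower, where 42.9% of all its genes were called, and 25 of these calls were shared with edgeR. Within an age the libraries were close: the median coefficient of variation of 53 members at 10 CPM or more (Eif2s3y left out) was 10.8% at P6 and 5.80% at P30, beside 11.8% and 8.61% for all 8223 tested genes at that level.

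**Figure D1:**
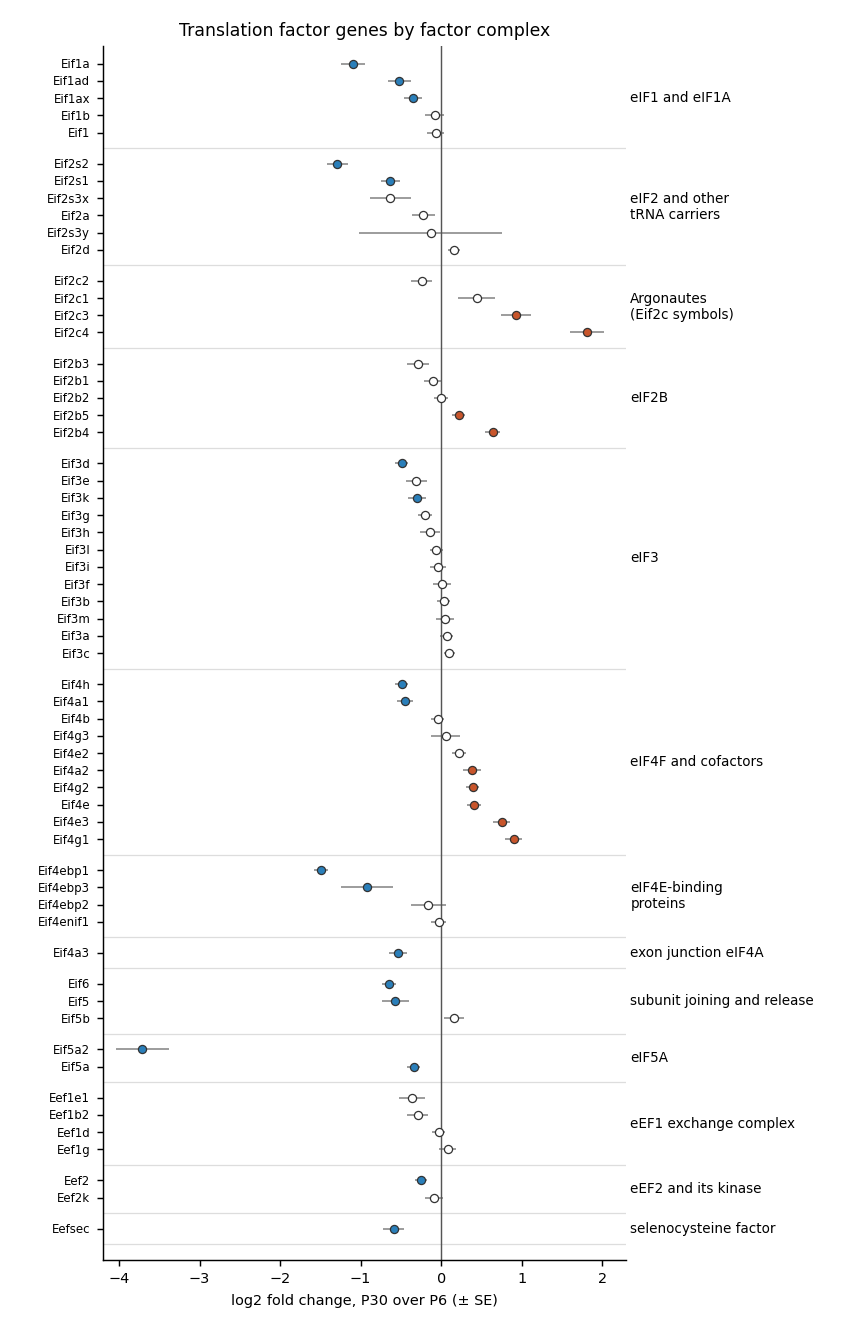
Log2 fold change (P30 over P6, x axis) with its standard error for each of the 59 tested genes, grouped by factor complex. Orange points passed the test as higher, blue points as lower and open points did not pass; most points lie within 1 log2 unit of 0, and Eif5a2 lies at -3.71.

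Counts in the factor complexes below stand beside shares over all tested genes of 26.3% higher, 27.8% lower and 56.6% not overlapping between the ages. Of 10 tested genes of eIF4F and its cofactors, 5 rose and 2 fell, and 8 did not overlap between the ages. Their median log2 fold change was 0.30, and they summed to 2420 to 2633 CPM at P6 and 3112 to 3196 CPM at P30. Much of that sum and of its rise came from 1 gene, Eif4g2, with a mean of 1376 CPM at P6 and 1797 CPM at P30. Eif4g1, the main scaffold (chromosome 16, 20668313 to 20692884, plus strand, GRCm38), had 246, 305, 244 and 234 CPM in P6a to P6d and 440, 521 and 476 CPM in P30a to P30c. Every P30 library lay above every P6 library. The mean went from 257 ± 32.6 CPM (SD of 4 libraries) to 479 ± 40.4 CPM (SD of 3), and the log2 fold change was 0.90 ± 0.11 (SE; edgeR adjusted p = 0.00013). Per kilobase of transcript Eif4g1 moved from the 18th to the 6th place among the members, from 45.6 to 85.0 CPM per kilobase.

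Eif4e, which binds the cap itself, had 114, 98.5, 117 and 115 CPM at P6 and 153, 147 and 143 CPM at P30. The ages did not overlap, and the log2 fold change was 0.41 ± 0.09 (edgeR adjusted p = 0.00328). Its relative Eif4e3, a cap-binding protein found in muscle, also rose. It had 46.2, 35.4, 44.1 and 39.0 CPM at P6 and 70.2, 72.6 and 65.4 CPM at P30, a log2 fold change of 0.75 ± 0.11 (edgeR adjusted p = 0.000383). Exons of Eif4e3 share 14.8% of their bases with Gm20696 on the same strand, so some of its counts may be split. Eif4e2, which competes for caps without binding the scaffold, had 60.2 to 68.5 CPM at P6 and 71.6 to 77.1 CPM at P30. Its ages did not overlap, yet it missed the threshold at a log2 fold change of 0.22 ± 0.09 (edgeR adjusted p = 0.0503). It passed as higher with DESeq2 (adjusted p = 0.0483), with DESeq2 size factors in edgeR (adjusted p = 0.0418) and in the authors' deposited table, which makes 6 rises in this complex.

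Eif4g2 encodes a shortened scaffold (DAP5) that lacks the eIF4E-binding region. It had the most counts of any member: 1479, 1349, 1405 and 1270 CPM at P6 and 1781, 1795 and 1816 CPM at P30. The P30 values were tightly grouped and all above P6, with a log2 fold change of 0.39 ± 0.08 (edgeR adjusted p = 0.00236). With the trend on transcript length removed it was 0.19 and did not pass (adjusted p = 0.0888). Eif4g3, the remaining scaffold, parted the P6 libraries instead of the ages. It had 71.2 and 68.7 CPM in P6a and P6b, 45.8 and 45.3 CPM in P6c and P6d, and 53.6 to 65.1 CPM at P30.

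Among the helicases, one paralog fell and the other rose. Eif4a1 had 159, 163, 198 and 177 CPM at P6 and 118, 137 and 126 CPM at P30, without overlap (log2 fold change -0.45 ± 0.10, edgeR adjusted p = 0.0043). Eif4a2 had 108, 80.4, 82.0 and 92.9 CPM at P6 and 123, 111 and 120 CPM at P30, also without overlap (log2 fold change 0.38 ± 0.11, edgeR adjusted p = 0.0172). The call of Eif4a2 was lost without P6c or P30a (edgeR adjusted p up to 0.0629) and with library totals. Of the helicase cofactors, Eif4h fell: it had 266, 296, 299 and 289 CPM at P6 and 206, 190 and 217 CPM at P30 (log2 fold change -0.49 ± 0.08, edgeR adjusted p = 0.000918). Eif4b, the other cofactor, had 84.9 to 91.5 CPM at P6 and 82.0 to 88.8 CPM at P30, with overlapping ages.

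**Figure D2:**
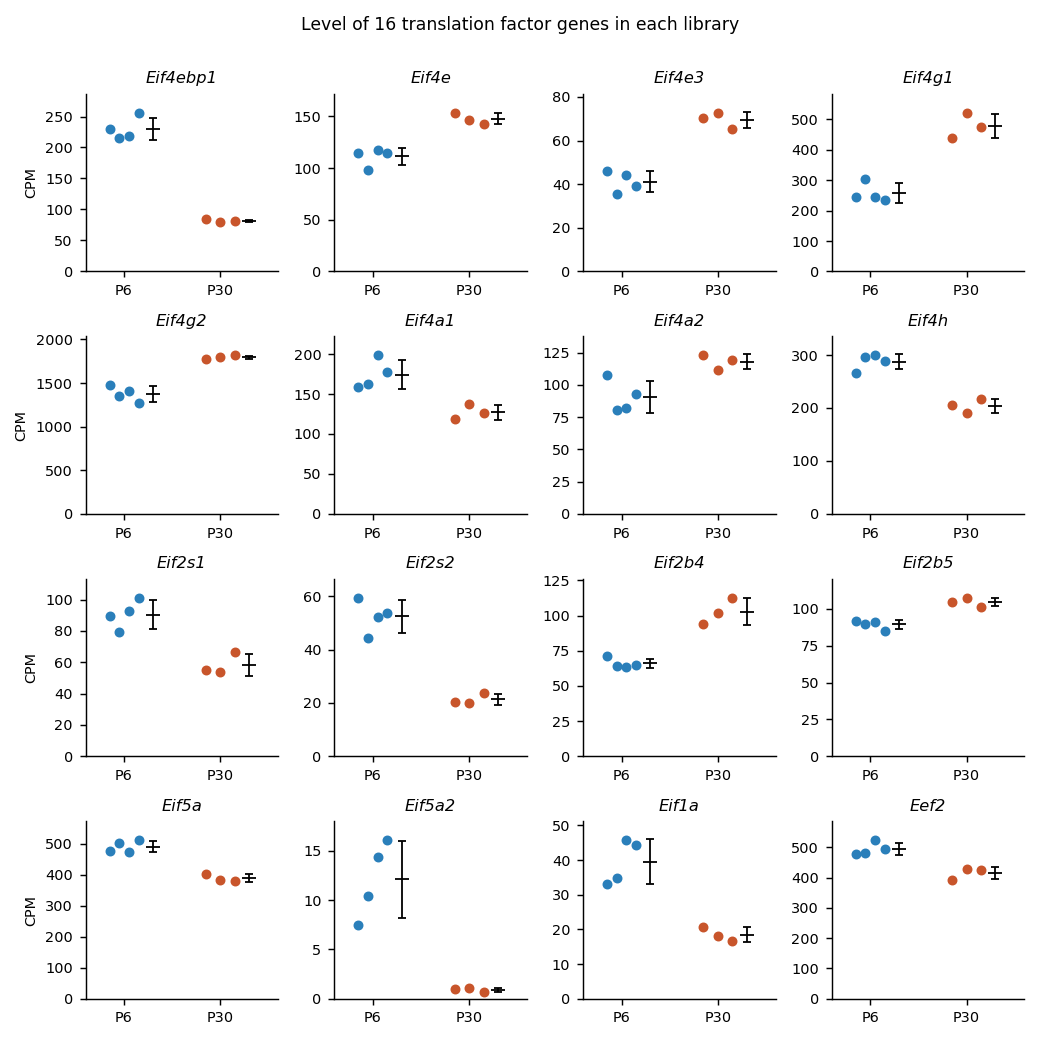
CPM (y axis, from 0) of 16 genes in each P6 library (blue) and P30 library (orange), with the mean and SD of each age in black. Eif4ebp1, Eif2s2 and Eif5a2 drop at P30, and Eif4g1 and Eif2b4 rise, with no overlap of the ages in any of the 5.

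Of 4 genes for eIF4E-binding inhibitors 2 fell and none rose, with a median log2 fold change of -0.54. Eif4ebp1 (4E-BP1; chromosome 8, 27260329 to 27276674, plus strand, GRCm38) had 230, 215, 219 and 256 CPM in P6a to P6d and 84.0, 80.1 and 81.0 CPM in P30a to P30c. All P30 libraries lay below the lowest P6 library. It went from 230 ± 18.2 to 81.7 ± 2.03 CPM, 2.81-fold lower (log2 fold change -1.49 ± 0.09, edgeR adjusted p = 2.42e-06). Per kilobase it fell from the 5th to the 19th place among the members. The ratio of Eif4ebp1 counts to Eif4e counts, which needs no library scaling and was chosen after the values were seen, was 1.87 to 2.22 in the P6 libraries and 0.546 to 0.566 in the P30 libraries.

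The other 4E-BP genes were far less counted. Eif4ebp2 had 9.41, 12.8, 9.01 and 9.88 CPM at P6 and 12.2, 6.66 and 8.70 CPM at P30, overlapping throughout (log2 fold change -0.16 ± 0.22, edgeR adjusted p = 0.567). Eif4ebp3 had 1.52 to 1.90 CPM at P6 and 0.725 to 1.03 CPM at P30, between 12 and 103 counts per library. It passed the test at -0.92 ± 0.32 (edgeR adjusted p = 0.0324), a call lost when any one of P6c, P30a, P30b and P30c was left out (edgeR adjusted p up to 0.125), with no filter on low counts, with the length trend removed and with DESeq2. Of its exon bases 67.3% lie in another coding gene model on the same strand, so its counts are uncertain. Eif4enif1, an eIF4E-binding protein of processing bodies, had 67.9 to 82.5 CPM at P6 and 70.7 to 75.9 CPM at P30.

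Of 6 genes for eIF2 and other carriers of the initiator tRNA 2 fell and none rose, with a median log2 fold change of -0.42. Eif2s2, the beta subunit (chromosome 2, 154871410 to 154892935, minus strand, GRCm38), had 59.3, 44.3, 52.4 and 53.9 CPM at P6 and 20.4, 20.1 and 23.7 CPM at P30. The ages were well apart, with a log2 fold change of -1.29 ± 0.13 (edgeR adjusted p = 3.73e-05). Eif2s1, the alpha subunit that stress kinases phosphorylate, had 89.4, 79.1, 92.5 and 101 CPM at P6 and 55.2, 53.8 and 66.3 CPM at P30 (log2 fold change -0.63 ± 0.12, edgeR adjusted p = 0.00132). These ages did not overlap either.

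The gamma subunit, which holds the initiator tRNA and GTP, is encoded on both sex chromosomes. Eif2s3x had 14.0 CPM in P6a, 8.19, 8.96 and 7.43 CPM in P6b to P6d, and 7.36, 5.11 and 6.10 CPM at P30. Its log2 fold change was -0.63 ± 0.25 and missed the threshold (edgeR adjusted p = 0.055); without P6a, its highest library, the log2 fold change was -0.41 (edgeR adjusted p = 0.115), and without P30b it was -0.50 (adjusted p = 0.175). It passed without P6b or P6d (edgeR adjusted p = 0.0487 or 0.035), with library totals, with no filter on low counts and with DESeq2. Eif2s3y had 0 counts in P6a, 88.8, 125 and 103 CPM in P6b to P6d, and 72.7, 62.5 and 84.0 CPM at P30. With all libraries its log2 fold change was -0.13 ± 0.89 (edgeR adjusted p = 0.913). Without P6a it was -0.53, and the edgeR adjusted p was 0.0197. Eif2s3x and Eif2s3y are close in sequence and the treatment of multiply mapped reads is not given, so the split of counts between them is uncertain. The genes for tRNA carriers other than eIF2 did not pass the test: Eif2a had 23.2 to 31.3 CPM at P6 and 22.7 to 27.4 CPM at P30, and Eif2d had 52.8 to 55.8 and 60.6 to 61.9 CPM, the latter without overlap. Without P6b, Eif2a was lower (edgeR adjusted p = 0.0349).

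Of the 5 eIF2B genes 2 rose and none fell, with a median log2 fold change of 0.00. Eif2b4, the delta subunit, had 71.1, 63.9, 63.8 and 65.0 CPM at P6 and 94.0, 102 and 113 CPM at P30. The groups were apart, and the log2 fold change was 0.64 ± 0.09 (edgeR adjusted p = 0.000328). Eif2b5, the catalytic epsilon subunit, had 91.8, 89.7, 91.0 and 85.2 CPM at P6 and 105, 107 and 101 CPM at P30 (log2 fold change 0.22 ± 0.08, edgeR adjusted p = 0.0316). That call was lost with library totals (0.04), with no filter on low counts, and when any one of P6c, P6d, P30a, P30b and P30c was left out, with an adjusted p up to 0.112. Eif2b1, Eif2b2 and Eif2b3, which encode the alpha, beta and gamma subunits, had log2 fold changes of -0.10, 0.00 and -0.29 and did not pass, although Eif2b3 was lower without P6b (edgeR adjusted p = 0.0381). Counts of Eif2s1 relative to Eif2b5, again a ratio chosen after the values were seen, were 0.882 to 1.19 at P6 and 0.501 to 0.654 at P30.

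Of 12 tested subunit genes of eIF3, the largest initiation factor, 2 fell and none rose, the median log2 fold change was -0.05, and their sum was 1139 to 1265 CPM at P6 and 1132 to 1195 CPM at P30. Eif3d, the subunit that can itself bind certain caps, had 94.1, 94.8, 105 and 95.2 CPM at P6 and 65.9, 69.7 and 72.3 CPM at P30. It was clear of overlap and fell by 0.49 ± 0.08 on the log2 scale (edgeR adjusted p = 0.000993). Eif3k, a peripheral subunit, had 59.8 to 77.1 CPM at P6 and 51.3 to 57.7 CPM at P30 (log2 fold change -0.30 ± 0.11, edgeR adjusted p = 0.0411). Its call was lost when any one of P6a, P6d, P30a, P30b and P30c was left out, with DESeq2 or its size factors, and with the length trend removed its log2 fold change was 0.07. The other 10 subunits had log2 fold changes from -0.31 (Eif3e) to 0.10 (Eif3c). Eif3c did not overlap between the ages, with 116 to 118 CPM at P6 and 122 to 128 CPM at P30, but did not pass the test (edgeR adjusted p = 0.284). Eif3e was lower without P6b or P30c, and Eif3g without P30c (edgeR adjusted p down to 0.00799 and 0.0453). With the length trend removed Eif3i and Eif3m were higher at P30, by 0.26 and 0.30 on the log2 scale (edgeR adjusted p = 0.022 and 0.0193).

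Levels per kilobase of transcript let the eIF3 subunits be compared with each other. At P6 they ran from 21.4 CPM per kilobase (Eif3f) to 88.9 (Eif3m), and at P30 from 21.5 (Eif3f) to 92.3 (Eif3m). The core subunits Eif3a, Eif3b and Eif3c had 29.1, 59.6 and 34.6 CPM per kilobase at P6 and 30.5, 60.7 and 37.0 at P30. Eif3d moved from 51.2 to 36.5 CPM per kilobase, close to the P30 level of Eif3c. These levels depend on which transcript is expressed, here taken as the longest coding one.

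**Figure D3:**
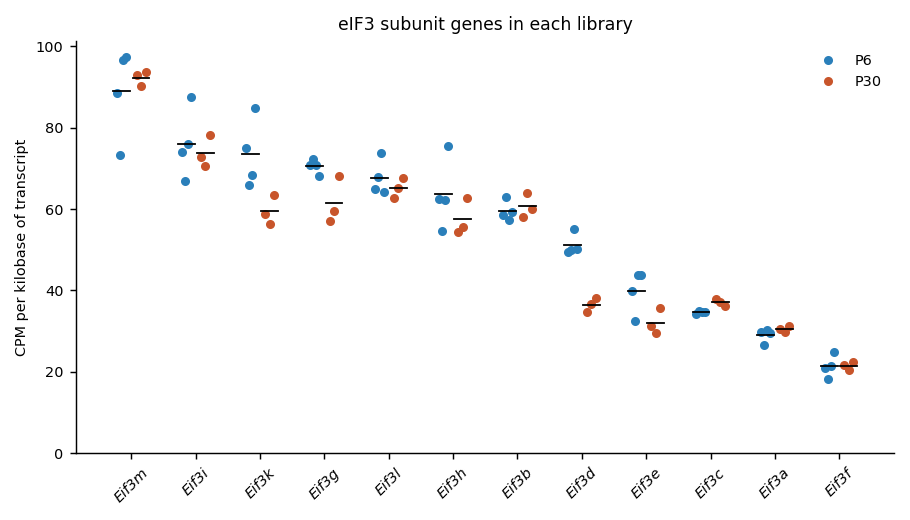
CPM per kilobase of transcript (y axis, from 0) of the 12 tested eIF3 subunit genes in P6 (blue) and P30 (orange) libraries, with the mean of each age as a line. The ages overlap for most subunits; Eif3d stands lower at P30, with means of 51.2 and 36.5.

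Of 5 genes of eIF1 and eIF1A 3 fell and none rose, and of 3 genes for subunit joining and release 2 fell and none rose. Eif1a, an autosomal copy of eIF1A, had 33.2, 34.8, 45.7 and 44.4 CPM at P6 and 20.8, 18.03 and 16.7 CPM at P30. That was a 2.13-fold fall without overlap (log2 fold change -1.09 ± 0.15, edgeR adjusted p = 0.000276). Its X-linked relative Eif1ax had 65.2, 53.5, 62.1 and 69.3 CPM at P6 and 46.1, 47.1 and 53.7 CPM at P30 (log2 fold change -0.35 ± 0.11, edgeR adjusted p = 0.0239). The call of Eif1ax was lost without P6a, P30a or P30b (edgeR adjusted p up to 0.0927), and its highest P30 library just overlapped P6. Eif1ad, a nuclear protein with an eIF1A-like domain, fell by 0.52 ± 0.14 on the log2 scale (edgeR adjusted p = 0.00985). It shares 15.3% of its exon bases with Banf1 on the opposite strand.

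Eif1, the gatekeeper of start codon choice, had 359, 296, 350 and 399 CPM at P6 and 334, 317 and 351 CPM at P30. Those ranges overlapped, as did those of its copy Eif1b, with 42.4 to 59.3 CPM and 45.7 to 50.6 CPM. With the length trend removed the log2 fold change of Eif1b was 0.24 and passed (edgeR adjusted p = 0.0401). Eif5, which makes eIF2 hydrolyse its GTP, had 188, 135, 199 and 191 CPM at P6 and 96.3, 116 and 149 CPM at P30. P30c reached above P6b, and the fall of 0.57 ± 0.17 on the log2 scale (edgeR adjusted p = 0.0187) was lost without P30a or P30b (adjusted p up to 0.0811). Eif5b, the GTPase of subunit joining, had 32.9 to 45.3 and 41.5 to 49.0 CPM. Eif6, which keeps the large subunit from joining too early, had 57.5, 64.0, 61.4 and 61.5 CPM at P6 and 37.9, 39.8 and 39.5 CPM at P30, clear of overlap (log2 fold change -0.65 ± 0.09, edgeR adjusted p = 0.000223).

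Both eIF5A genes fell, and Eif5a2 had the largest fold change of the 59 tested members. eIF5A, the only protein with the modified lysine hypusine, helps ribosomes through stalling sequences, and Eif5a2 is its second, more restricted gene. Eif5a2 (chromosome 3, 28781276 to 28798846, plus strand, GRCm38) had 7.51, 10.4, 14.4 and 16.04 CPM in P6a to P6d, from 83 to 781 counts. At P30 it had 0.948, 1.10 and 0.702 CPM, from 10 to 17 counts, above the floor of 3 counts but near it. The fall was 13.1-fold (log2 fold change -3.71 ± 0.33, edgeR adjusted p = 2.1e-05), and with 1 library left out the log2 fold change ran from -3.88 to -3.56. P6c and P6d held more of it than P6a and P6b. Eif5a, the member with the highest level per kilobase at both ages (342 and 271 CPM per kilobase), had 479, 502, 474 and 511 CPM at P6 and 404, 382 and 381 CPM at P30. It fell without overlap by 0.34 ± 0.08 on the log2 scale (edgeR adjusted p = 0.00411), but by 0.14 with the length trend removed, which did not pass (adjusted p = 0.158).

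Among the elongation factors Eef2 and Eefsec passed the test, both lower at P30. Eef2, which moves the ribosome by a codon, had 478, 481, 523 and 495 CPM at P6 and 392, 427 and 427 CPM at P30. The ages did not overlap, and it fell by 0.25 ± 0.08 on the log2 scale (edgeR adjusted p = 0.021), a call lost without P6c, P30a or P30b (adjusted p up to 0.0963). Its inhibitory kinase Eef2k had 65.1, 64.8, 51.6 and 53.4 CPM at P6 and 53.9, 54.4 and 57.0 CPM at P30. P30 lay between the P6 pairs, and the log2 fold change was -0.09 ± 0.11. Of the 4 genes grouped with the eEF1 exchange complex, which recharges eEF1A with GTP, none passed the test under edgeR or DESeq2, and 2 were lower at an unadjusted edgeR p under 0.05. Eef1b2 (50.3 to 73.01 CPM at P6, 47.1 to 53.9 CPM at P30) and Eef1e1 (12.6 to 17.6 and 10.9 to 13.9 CPM) had log2 fold changes of -0.29 and -0.36, with edgeR adjusted p of 0.0793 and 0.0804. Both passed without P6b and with library totals. Eef1d had 91.0 to 105 CPM at P6 and 94.8 to 100.2 CPM at P30, and Eef1g had 54.3 to 70.7 and 62.5 to 71.5 CPM.

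Eefsec, which brings selenocysteine to recoded stop codons, had 14.4, 15.8, 14.4 and 14.9 CPM at P6 and 9.37, 11.1 and 9.19 CPM at P30. It fell by 0.59 ± 0.13 on the log2 scale without overlap (edgeR adjusted p = 0.00445). The eEF1A genes themselves, which the rule leaves out, changed in opposite directions: Eef1a1 went from 441 ± 41.2 to 66.0 ± 11.4 CPM and the muscle form Eef1a2 from 63.6 ± 12.2 to 209 ± 32.8 CPM (SD of 4 and 3 libraries). Beside them, the log2 fold changes of Eef1b2, Eef1d and Eef1g were -0.29, -0.03 and 0.08. That of Eef1e1, which is only grouped here with the exchange complex, was -0.36.

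A few members share the symbol but not the task. Eif4a3, a helicase of the exon junction complex, had 111, 104, 119 and 134 CPM at P6 and 85.6, 80.9 and 74.8 CPM at P30 (log2 fold change -0.54 ± 0.11, edgeR adjusted p = 0.00195). Eif2c1 to Eif2c4 are older symbols of the Argonautes Ago1 to Ago4, which act with small RNAs. Of these, Eif2c4 had 9.41, 7.82, 6.99 and 4.98 CPM at P6 and 27.7, 29.0 and 20.1 CPM at P30, a 3.51-fold rise without overlap (log2 fold change 1.81 ± 0.21, edgeR adjusted p = 9.41e-05). Eif2c3 had 7.15 to 10.5 and 14.0 to 20.4 CPM (log2 fold change 0.93 ± 0.19, edgeR adjusted p = 0.00245). Eif2c2, the slicer and the most counted of the 4, had 39.4 to 51.0 and 35.5 to 44.4 CPM and did not pass, nor did Eif2c1, with 3.798 to 7.598 and 6.81 to 8.01 CPM. Eif2c1 was higher without P6a (edgeR adjusted p = 0.0453). Eif2c2 was lower with the length trend removed, with a log2 fold change of -0.59 against -0.24 (edgeR adjusted p = 0.00902), and with library totals (-0.42, adjusted p = 0.0183). Without the Argonautes the 55 tested members had 7 rises and 18 falls, and a median log2 fold change of -0.13.

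Shares of counts within families of related genes do not depend on library scaling. Of 10 families 9 were tested, by an exact two-sided permutation test, and Eif3j and its copy were not. The smallest p that 4 libraries against 3 allow is 0.0286, and after Benjamini-Hochberg adjustment over the 9 families no share passed 0.05; the smallest adjusted p was 0.0857, reached by 6 families. Only the first-listed gene of each family was tested, and for that gene the ages did not overlap in 6 families. Eif4a1 made up 59.6%, 66.9%, 70.7% and 65.6% of the Eif4a1 and Eif4a2 counts at P6 and 49.1%, 55.3% and 51.3% at P30 (exact permutation p = 0.0571). Eif1ax made up 61.4% ± 3.59 of its pair with Eif1a at P6 and 72.5% ± 3.68 at P30 (exact permutation p = 0.0571).

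Eif4ebp1 held 95.0% ± 0.894 of the 4E-BP counts at P6 and 89.1% ± 2.32 at P30 (exact permutation p = 0.0286). Eif4g1 went from 15.2% ± 1.76 to 20.5% ± 1.29 of the scaffold counts (exact permutation p = 0.0571), and Eif4b from 23.5% ± 0.644 to 29.6% ± 1.93 of its sum with Eif4h (exact permutation p = 0.0286). Eif5a went from 97.6% ± 0.726 to 99.77% ± 0.0516 of its pair (exact permutation p = 0.0286). By contrast, the share of Eif1 in its pair with Eif1b was 87.5% ± 0.417 and 87.6% ± 0.35, and that of Eif4e among the cap-binding genes 51.3% ± 0.779 and 50.5% ± 0.451. Shares of Eif4e2 and Eif4e3 in that family were not tested, but for both the ages did not overlap. Eif4e2 went from 29.8% ± 2.02 to 25.7% ± 1.2, and Eif4e3 from 19.0% ± 1.55 to 23.7% ± 1.08. Eif2s3x was 100% of its pair in P6a and 6.70% to 9.19% in the other 6 libraries.

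**Figure D4:**
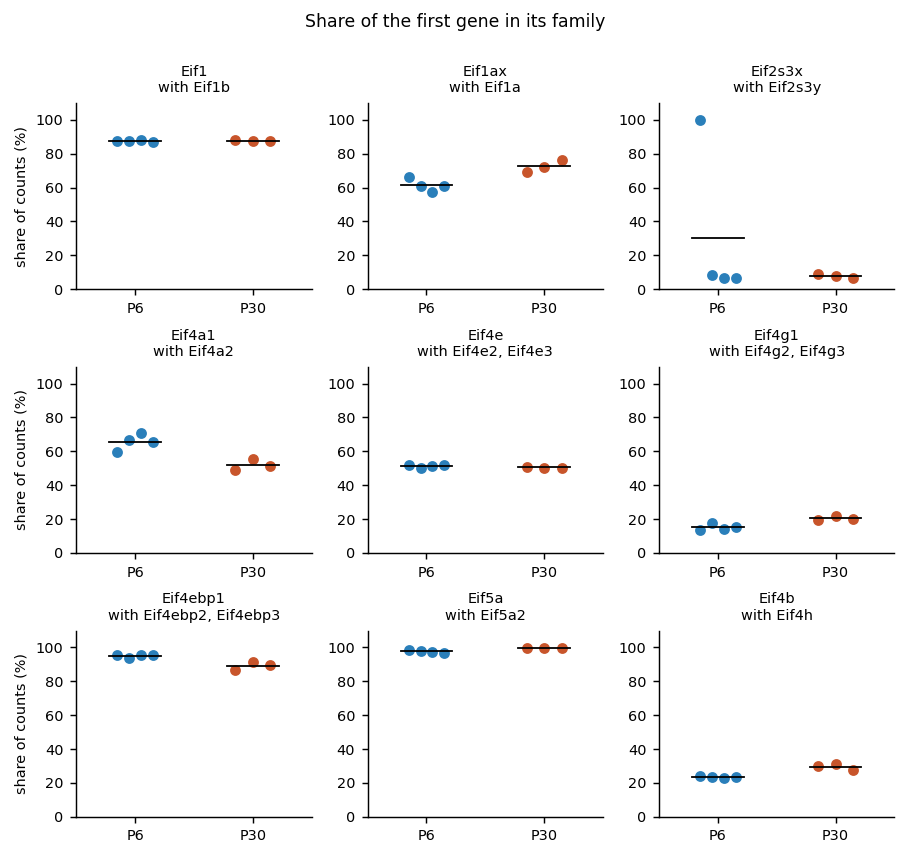
Share of counts (y axis, %) of the first-named gene in its family for 9 families, in each P6 (blue) and P30 (orange) library, with the mean as a line. Eif4a1 is lower at P30 and Eif1ax higher, Eif1 and Eif4e overlap between the ages, and the single point at 100% for Eif2s3x is P6a.

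Genes that act on these factors were read from lists. For this and the lists below, the shares over all tested genes were 26.3% higher and 27.8% lower, with a median log2 fold change of -0.02. Signalling by mTORC1 and MNK, through kinases and their regulators, releases 4E-BPs and phosphorylates eIF4E. Of 14 genes of this signalling 8 rose and 3 fell, with a median log2 fold change of 0.37. The rises were those of Mtor, Rptor, Mlst8, Deptor, Tsc1, Tsc2, Larp1 and Mknk2, and the falls those of Akt1s1, Rheb and Rps6kb2. The inhibitor Tsc2 went from 166 ± 17.5 to 309 ± 27.2 CPM and the eIF4E kinase Mknk2 from 160 ± 25.6 to 206 ± 23.4 CPM. Rheb, the GTPase that activates mTORC1, fell from 161 ± 29.5 to 66.9 ± 8.07 CPM, and Akt1s1, an mTORC1 inhibitor, from 35.4 ± 3.05 to 26.8 ± 2.68 CPM. Inhibitors of the pathway were thus among both the rises and the falls. The call of Mknk2 was lost with library totals (0.19) and when any one of P6a, P6c, P6d, P30b and P30c was left out (edgeR adjusted p up to 0.149). That of Akt1s1 was lost without P30a or P30b, where 1 gene of the list fell, and with the length trend removed (edgeR adjusted p up to 0.0933).

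The eIF2 kinases and genes of the integrated stress response gave 3 rises and 1 fall of 15 (median log2 fold change 0.21). Gcn1l1, which activates the kinase Gcn2, went from 82.1 ± 17.7 to 120 ± 5.16 CPM and the heme-regulated kinase Eif2ak1 from 48.8 ± 3.02 to 58.8 ± 2.5 CPM. The call of Eif2ak1 was lost without P6c, P30b or P30c, with library totals (0.09), with no filter on low counts and with the length trend removed (edgeR adjusted p up to 0.389). With library totals that of Gcn1l1 was lost as well (0.36, edgeR adjusted p = 0.0881). Ddit3, a stress transcription factor, also rose, and is named after its values were seen. The fall was that of the ATF4 target Asns, from 3.60 ± 1.14 to 1.63 ± 0.747 CPM. That call was lost when any one of P6c, P6d, P30b and P30c was left out (edgeR adjusted p up to 0.0916), and 1 rise was left without P6c.

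Other steps of translation were also measured. Of 20 cytosolic aminoacyl-tRNA synthetases, which load tRNAs with amino acids, 8 rose and none fell (median log2 fold change 0.17). Iars went from 92.2 ± 6.74 to 163 ± 9.38 CPM and Eprs from 161 ± 8.40 to 208 ± 7.71 CPM. With library totals 2 rose and 2 fell, and Eprs was not called (0.19, edgeR adjusted p = 0.0716). Of 9 mitochondrial translation factors, 8 rose and none fell (median log2 fold change 0.53): Gfm1 went from 241 ± 18.2 to 348 ± 16.3 CPM and Tufm from 166 ± 1.30 to 240 ± 2.5 CPM. The median over the 59 tested members was -0.10 on the same scale.

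Termination, recycling and rescue factors gave 1 rise and 3 falls of 9 (median log2 fold change -0.16). Hbs1l, which rescues stalled ribosomes, went from 58.3 ± 5.62 to 93.8 ± 5.50 CPM, whereas its partner Pelo fell from 23.8 ± 2.83 to 14.7 ± 1.56 CPM and the recycling factor Denr from 74.3 ± 11.6 to 56.2 ± 5.07 CPM. The call of Denr was lost when any one of P6a, P6d, P30a and P30b was left out (edgeR adjusted p up to 0.117) and with the length trend removed. The other fall was that of Gspt2, a release factor GTPase. Of 5 tested poly(A)-binding protein genes and partners, Paip2b, an inhibitor of poly(A)-binding protein, rose from 16.3 ± 1.03 to 47.8 ± 1.55 CPM. Pabpc1 itself fell from 70.1 ± 8.87 to 43.5 ± 6.53 CPM and its coactivator Paip1 from 11.5 ± 0.695 to 7.57 ± 1.19 CPM. The enzymes that make hypusine and diphthamide, the modified residues of eIF5A and eEF2, gave 2 rises (Dph1 and Dph2) and 1 fall (Dnajc24) of 7. Neither rise was called when P6a, P30a or P30c was left out, and 1 was called without P6c.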

How the data were processed

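Poly(A) RNA of sorted cardiomyocytes was sequenced in 7 libraries. The deposited counts are raw and per gene, and the submitters' processing notes name mm10, CASAVA 1.8, STAR 2.5.3a, featureCounts and Subread 1.5.2. Those notes also name DESeq2. Strand, annotation and multi-mapping settings were not found in the labels or headers. The authors' deposited table compares the ages and, per the file headers, gives baseMean (a signal of scaled counts), the log2 fold change and its standard error, a test statistic (a score) and p-value columns. Library letters (a, b and so on) match no numbered title, so each column was assigned to an age only.

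Counts were fitted with edgeR 4.0.16 in R 4.3.3 (filterByExpr, TMM, quasi-likelihood test of age, no covariate) over the whole table. Alternatives were DESeq2 1.42.0, DESeq2 size factors, library totals, no filter, removal of a trend on transcript length, and leaving out each library. The procedure was tested on simulated data. There it recovered 67.5% of 2-fold and 31.2% of 1.5-fold changes, and 3.64% of its calls were false. Far fewer genes were changed there than were called here, so the setting differs from these data. A gene that did not pass therefore cannot be read as unchanged. GENCODE M21 (GRCm38, the build also called mm10) gave positions and transcript lengths for 61 of 61 members and 22873 of 23337 genes, with RefSeq synonyms for older symbols. No pair of libraries of an age came within sampling noise (chi-square per gene at least 13.0). The detection floor covers counting error only, and PCR copies were not told apart. Members, complexes and lists were chosen with earlier results of these data known. The rule for values by library took, per complex, the most counted member and the largest called rise and fall, with the eIF4F, 4E-BP and family genes and those past 2-fold without overlap; pathway genes are the 2 most counted called ones in each direction. Other members given with their CPM were chosen after their values were seen.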

Additional observations from a re-analysis of the deposited data

Results flagged for a closer look

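Among the 4 P6 libraries, a single library lay far from the other 3, by Dixon's gap over range, in 9 of 68 checks. The checks were on members and family shares, and for independent checks chance gives about 1 in 20. These checks share libraries and counts, so they are not independent. No such rate was taken over all tested genes, so whether the number is particular to the members is not known. P6b was the library apart for Eif4g1 (305.4 CPM, the highest), Eif4e (98.52 CPM, the lowest), Eif2a (23.17 CPM, the lowest) and Eif2d (52.84 CPM, the lowest), and for the share of Eif4e in its family (50.12%, the lowest). P6c was highest for Eif3d (104.8 CPM) and Eif4ebp3 (1.899 CPM), and P6a for Eif2b4 (71.1 CPM) and for the share of Eif2s3x in its pair (100%).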

How the results depend on the processing

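Of the 27 members called, 18 kept their call and sign in every alternative, and Eif3k was the one whose sign changed. Library totals in place of TMM factors moved the most counts: 32 members were lower, 4 for eIF2 and other tRNA carriers, 6 for eIF3, 3 for the eEF1 exchange complex and 6 for the TOP list, while eIF2B gave 1 higher and 2 lower. With that scaling the stress response list gave 0 higher and 2 lower, mTORC1 and MNK signalling 5 higher, the hypusine and diphthamide enzymes 0 higher and 2 lower, the tRNA synthetases 2 higher and 2 lower, and the mitochondrial factors 1 lower. With no filter on low counts 1 gene was higher in eIF2B and 1 in the hypusine and diphthamide list, and 1 was lower among the eIF4E-binding inhibitors. Removing the length trend gave 1 higher in eIF1 and eIF1A, 2 higher and 1 lower in eIF3, and 1 lower among the inhibitors. DESeq2 gave 1 lower in eIF3, also with its size factors alone, and 1 lower among the inhibitors. With each library left out in turn, the number lower ran from 2 to 4 in eIF2 and other carriers, 0 to 1 in eIF2B, 1 to 3 in eIF3, 1 to 2 among the inhibitors, 0 to 2 in the eEF1 exchange complex, 0 to 1 in the stress response list, 1 to 3 in mTORC1 and MNK signalling and 0 to 3 in the TOP list; the number higher ran from 1 to 2 in eIF2B, 1 to 3 in the stress response list and 0 to 2 in the hypusine and diphthamide list. Log2 fold changes that turned with library totals were those of Eif5b (-0.02), Eif2d (-0.03), Eef1g (-0.10), Eif3a (-0.11), Eif3m (-0.12), Eif4g3 (-0.12), Eif3b (-0.15), Eif3f (-0.17) and Eif3c (-0.08). With the length trend removed those of Eif5b (-0.04), Eif1 (0.16), Eif2b2 (0.17), Eif3h (0.10), Eif3l (0.06), Eif3a (-0.01), Eif3i (0.26), Eif4g3 (-0.13), Eif2b1 (0.02), Eif3k (0.07), Eif3g (0.10) and Eif1b (0.24) turned. The cause was not tested. No paired analysis was possible because the count columns carry letters, not the replicate numbers of the titles. Family shares with a library left out have no test, since such groups cannot reach p under 0.05.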
